A study of Mus musculus with 10 samples.

Results

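Ubiquitin-specific proteases (USPs) other than Usp7 were examined in the thymus of mice that carried a knock-out of Usp7, the gene for the enzyme also known as HAUSP. The members were taken by symbol alone: protein-coding mouse genes named Usp with a number and at most 1 letter, without Usp7 itself. The rule gave 49 members among 35375 features of the count table, of which 43 had enough counts to be tested (edgeR filterByExpr). Whole thymus had been taken 3 days after birth from 10 C57BL/6J animals and its ribo-depleted total RNA sequenced. The comparison asks whether relatives of the deleted protease change when 1 or both copies of Usp7 are lost.

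In the homozygous KO group (n = 3 animals) both Usp7 alleles were knocked out in the hematopoietic system, and in the heterozygous KO group (n = 3) 1 allele was. The wild-type group (n = 4) was described for the series as 2 animals with cre, the recombinase that deletes marked genes, and 2 without it. Which library is which was not stated, and neither was the promoter that drives cre. Thymic epithelium and other non-hematopoietic cells in these thymi would keep Usp7 under such a deletion. In the titles wild type 1 and wild type 2 carry the word wt in duplicate and wild type 3 and wild type 4 carry it once, and the table's column names add the word het to the latter pair.

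USPs are the largest family of deubiquitinating enzymes. They are cysteine proteases that cut ubiquitin, a small protein tag, from other proteins and so alter the stability, place or activity of those proteins. Some act with partner proteins that switch them on, some are catalytically inactive, and several take part in the DNA damage response, chromatin regulation and immune signalling that developing T cells use. USP7 acts on MDM2 and p53, among many other substrates.

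The libraries held 39.8 to 122 M counts. The 2 shallowest were wild type 1 and wild type 2, with 39.83 and 41.02 M. Values below are CPM, counts relative to the library total, scaled by edgeR's TMM method. Usp7 was measured at 303, 422 and 408 CPM in the homozygous KO, 472, 516 and 516 CPM in the heterozygous KO, and 676, 670, 594 and 589 CPM in wild type 1 to 4. The 3 groups did not overlap for Usp7, and the 2 wild types with het in their column names were the lower pair. Usp7 fell by 0.74 ± 0.11 (log2 fold change ± standard error) when homozygous KO was set against wild type (adjusted p = 5.2e-04, edgeR quasi-likelihood test with Benjamini-Hochberg adjustment over 19511 features). The heterozygous difference was -0.34 ± 0.11 (edgeR adjusted p = 0.608). Of 9 thymocyte markers none was at 0 in all libraries, and their summed level was 8575 to 8925 CPM in the homozygous KO, 10126 to 10857 CPM in the heterozygous KO and 10347 to 11663 CPM in wild type. Single thymocyte markers went both ways in homozygous KO against wild type, with 2 of the 9 higher, 2 lower and a median log2 fold change of -0.00. The 5 B cell markers summed to 6.34 to 8.92 CPM in the homozygous KO and 29.9 to 47.5 CPM in wild type, and the 6 dendritic cell markers to 3.85 to 5.71 CPM and 30.9 to 45.8 CPM. The 6 erythroid markers spanned 97.6 to 958 CPM in the homozygous KO and 138 to 703 CPM in wild type. Of 7 fibroblast markers 4 were higher and 1 lower (median log2 fold change 1.55), with sums of 18.9 to 53.4 CPM and 26.4 to 37 CPM. Of 7 myeloid markers 2 were higher and 2 lower, with sums of 56 to 213 CPM and 58.9 to 69.7 CPM. In whole tissue, fewer cells of a type and less RNA per cell cannot be told apart. The part of these shifts in the members' values was not tested. Xist, the RNA of the inactive X chromosome, exceeded 100 CPM in 1 homozygous, 0 heterozygous and 3 wild-type animals, and Ddx3y, on the Y chromosome, exceeded 10 CPM in the other 6, so the sexes were unevenly spread over the groups.

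Wild-type thymus contained a wide range of USP transcripts. Divided by exon length, Usp1 ranked highest at 74.2 ± 5.59 CPM per kb (SD, n = 4), above Usp19 (38.1 ± 1.02), Usp22 (35.7 ± 2.47), Usp3 (33.7 ± 3.86) and Usp25 (33.1 ± 1.5). Usp7 itself stood at 81.5 CPM per kb. Exon lengths came from the GENCODE annotation of GRCm38, another build than that of the counts, so they need not match the exons counted. In all, 20 of the 43 tested members were above 10 CPM per kb. The lowest were Usp46 (0.73 ± 0.0771), Usp50 (0.479 ± 0.128) and Usp27x (0.457 ± 0.198), so that the order spanned 162-fold. Of the 42 neighbouring pairs in this order, 31 overlapped between libraries. Usp1 did not overlap Usp19, whereas Usp19, Usp22, Usp3, Usp25 and Usp5 each overlapped the next member.

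**Figure D1:**
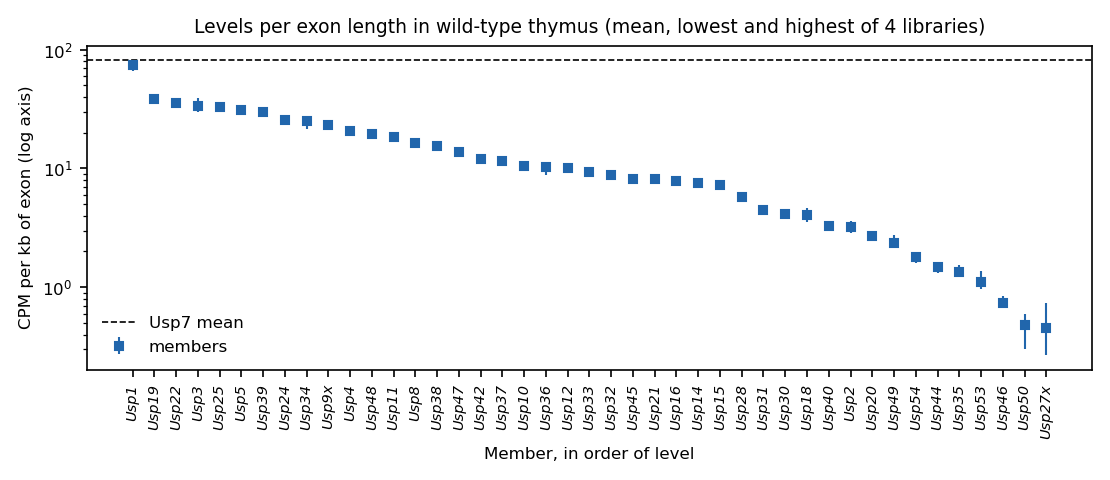
Level of each of the 43 tested members in wild-type thymus, as CPM per kb of exon on a log axis; squares are means and bars run from the lowest to the highest of 4 libraries, and the dashed line is the mean of Usp7. Usp1 (74.2 CPM per kb) stands above the rest, and Usp50 (0.479) and Usp27x (0.457) are lowest.

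The 6 members that were not tested were at or near 0. Usp9y, the Y-linked copy of Usp9x, and Usp26, a germline gene, had 0 counts in all 10 libraries, which allows up to 0.0245 CPM in the deepest and 0.0753 CPM in the shallowest library (3 counts, counting error only). The 6 libraries with Ddx3y above 10 CPM were among those with 0 counts of Usp9y. Usp29 had 1 count in total. Usp43 had 0 to 6 counts and Usp51 had 0 to 5 counts per library. Usp13, a relative of Usp5, had 5, 6 and 23 counts in the homozygous KO, 0, 4 and 3 in the heterozygous KO and 0, 2, 2 and 0 in wild type. These 6 members were too low for a fold change.

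Set against wild type, the homozygous KO had 14 of the 43 tested members (32.6%) past an adjusted p of 0.05, where 25.8% of all features tested did. Of these, 10 were higher (23.3% of members, 12.5% of all features) and 4 were lower (9.3% of members, 13.2% of all features). With library totals alone in place of TMM scaling, which moved the median of all genes to -0.11, the split was 6 higher and 9 lower. Members moved little in size: the median absolute log2 fold change was 0.18 over the members and 0.27 over all features. Usp27x was the only member whose fitted change exceeded 2-fold, 2.33% of the members against 13.9% of all features. The features were not matched to the members in expression level, so neither value sets the family apart. The libraries of the groups did not overlap for 15 members (34.9%), 9 above and 6 below, where 32.7% of all features did not overlap. Against only the 2 wild types with 1 wt word in their titles, 6 members passed (5 higher and 1 lower), where 13.4% of all features did, and against only the 2 with 2 wt words 12 passed (9 higher and 3 lower), where 18.2% did. The 15 members without overlap held 13 of the 14 called members, with Usp27x as the exception, plus Usp38 and Usp40.

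**Figure D2:**
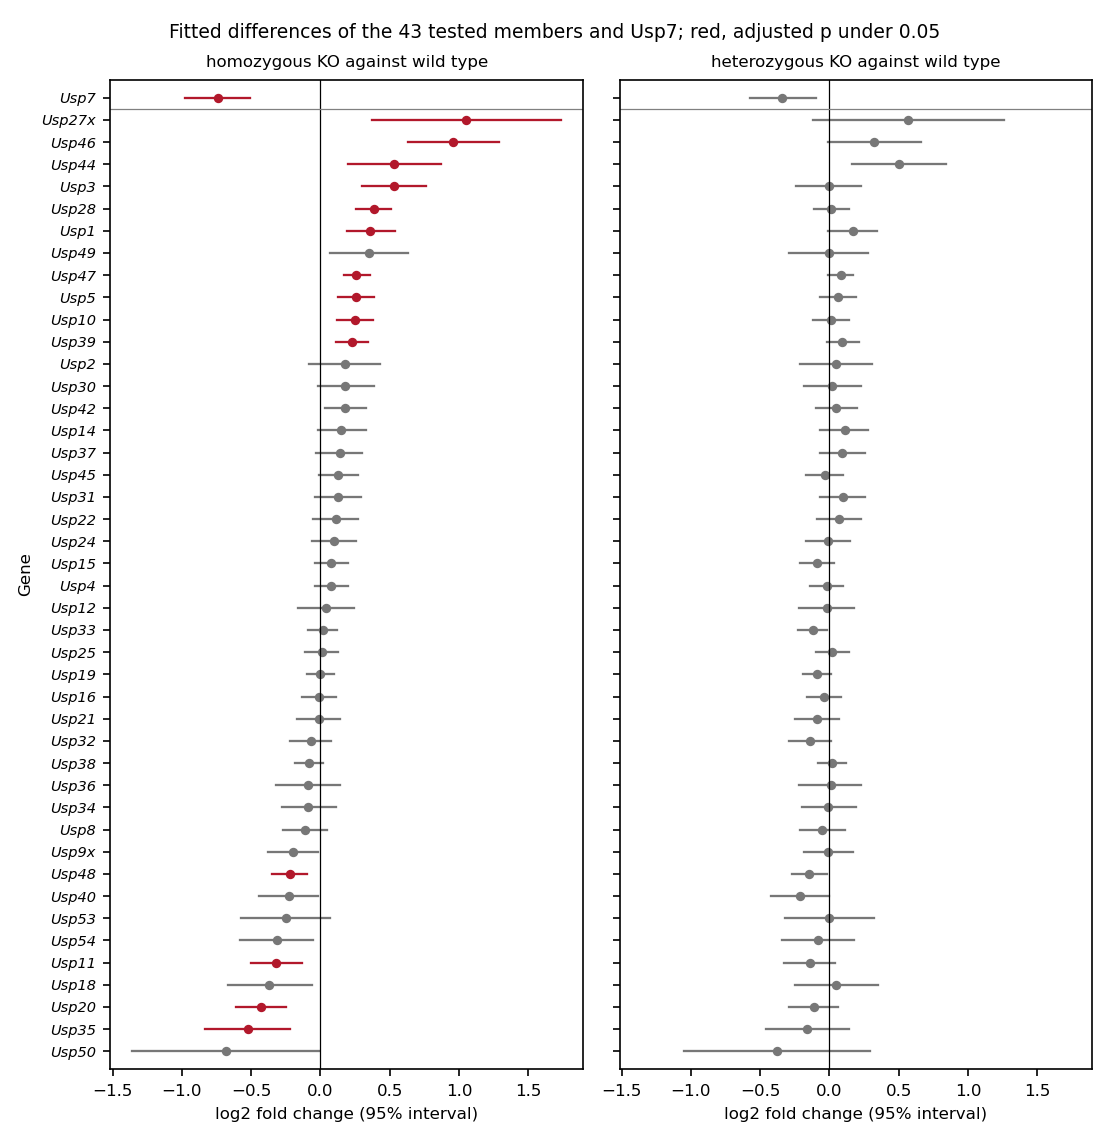
Fitted log2 fold changes of the 43 tested members and Usp7 in homozygous KO (left) and heterozygous KO (right) against wild type, with 95% intervals; red marks an adjusted p under 0.05 (edgeR). On the left 10 members lie above 0 in red and 4 below, and on the right none is red; both panels use the same 4 wild types.

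The closest relatives of USP7 by sequence are USP47, an enzyme of base excision repair, and the less studied USP40. Usp47 was at 226, 233 and 226 CPM in the homozygous KO, 199, 202 and 202 CPM in the heterozygous KO and 194, 191, 181 and 195 CPM in wild type. Every homozygous library stood above every other library. Usp47 rose by 0.26 ± 0.04 against wild type (edgeR adjusted p = 0.00111) and by 0.18 ± 0.05 against heterozygous KO (adjusted p = 0.0173). Usp40 was at 30.9, 33.9 and 35.3 CPM in the homozygous KO, 39.2, 29.7 and 32.6 CPM in the heterozygous KO and 38.1, 39.4, 36.7 and 42.5 CPM in wild type. The homozygous libraries of Usp40 lay below the wild types, but the difference of -0.23 ± 0.10 did not pass (edgeR adjusted p = 0.103, 95% interval -0.44 to -0.02). Usp40 passed only with library totals alone (-0.32, adjusted p = 0.0387).

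USP1, USP12 and USP46 are switched on by the partner WDR48. USP1 takes ubiquitin from FANCD2 and PCNA, proteins of DNA crosslink repair and damage bypass. Usp1 was at 404, 332 and 333 CPM in the homozygous KO, 300, 326 and 306 CPM in the heterozygous KO and 282, 282, 247 and 296 CPM in wild type, with the groups in that order and no overlap. Its rise against wild type was 0.36 ± 0.08 (edgeR adjusted p = 0.00721). Usp46 lies on chromosome 5 from 73998453 to 74068431, minus strand, in the GENCODE annotation of GRCm38, and 362 of its exon bases overlap genes on the opposite strand. It was at 10.6, 12.1 and 10.7 CPM in the homozygous KO, 5.73, 6.84 and 8.95 CPM in the heterozygous KO and 5.65, 5.3, 5.36 and 6.6 CPM in wild type. The homozygous libraries were above all others, and heterozygous KO 3 was highest of the rest. Usp46 rose by 0.96 ± 0.15 against wild type (edgeR adjusted p = 9.7e-04). Usp12, the close relative of Usp46, was at 54.8, 45.8 and 42.7 CPM in the homozygous KO, 45.5, 47.1 and 44.7 CPM in the heterozygous KO and 44.9, 44.1, 52 and 44.8 CPM in wild type. Its groups overlapped, and its difference was 0.04 ± 0.09 (95% interval -0.16 to 0.24), a sign that turned with library totals alone (-0.06).

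USP22, USP27X and USP51 can each join ATXN7L3 and ENY2 in removing ubiquitin from histone H2B, USP22 as part of the SAGA coactivator complex. Usp22 was at 171, 200 and 194 CPM in the homozygous KO, 170, 193 and 186 CPM in the heterozygous KO and 169, 170, 167 and 193 CPM in wild type, and its difference was 0.11 ± 0.07 (edgeR adjusted p = 0.318, 95% interval -0.05 to 0.27). Usp27x was far scarcer, at 2.83, 5.52 and 3.92 CPM in the homozygous KO, 2.57, 3.13 and 3.07 CPM in the heterozygous KO and 1.15, 1.88, 1.64 and 3.14 CPM in wild type. Wild type 4 reached the range of the knock-outs. Usp27x rose by 1.05 ± 0.31 against wild type (edgeR adjusted p = 0.0293). That call was lost without homozygous KO replicate 2 (0.78, adjusted p = 0.125), homozygous KO replicate 3 (adjusted p = 0.058) or wild type replicate 1, 2 or 3 (0.87, 1.03 and 0.97, adjusted p = 0.0663, 0.0687 and 0.0712). Against the 1 wt word pair alone it was lost too (0.77, edgeR adjusted p = 0.187), as with only the 2 groups compared (adjusted p = 0.0567). Usp27x is X-linked, and its level was 2.83 and 5.52 CPM in the homozygous libraries without Xist RNA above 100 CPM and 3.92 CPM in the one with it. In wild type it was 1.15 CPM in the library without such Xist RNA and 1.88, 1.64 and 3.14 CPM in the 3 with it.

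Of the 8 other members known for work on histones or chromatin (Usp3, Usp16, Usp21, Usp36, Usp42, Usp44, Usp45 and Usp49), 2 rose and none fell, a called share near the 25.8% of all features. Usp3, an enzyme for histones H2A and H2B, was at 276, 375 and 350 CPM in the homozygous KO, 225, 234 and 232 CPM in the heterozygous KO and 232, 223, 202 and 266 CPM in wild type. The homozygous libraries were above all others, by a narrow margin over wild type 4. Usp3 rose by 0.53 ± 0.11 against wild type (edgeR adjusted p = 0.00377). Usp44, which acts on H2B and in the mitotic checkpoint, was at 10.6, 6.51 and 8.78 CPM in the homozygous KO, 8.83, 8.76 and 7.66 CPM in the heterozygous KO and 5.28, 6.09, 6.13 and 6.31 CPM in wild type. Both knock-out groups lay above the wild types, and homozygous KO 2 was only just above them. Usp44 rose by 0.53 ± 0.15 (edgeR adjusted p = 0.0259). The call did not hold without homozygous KO replicate 1 (0.36, adjusted p = 0.11) or replicate 3 (adjusted p = 0.0697), nor without wild type replicate 1 (adjusted p = 0.0706) or replicate 2 (adjusted p = 0.0537), nor with library totals alone (0.44, adjusted p = 0.0579). The call was also lost against either wild-type pair alone, with the replicate block and with only the 2 groups compared. The other members of this group were between -0.09 and 0.35, and Usp49 at 0.35 ± 0.13 missed the threshold (edgeR adjusted p = 0.0696). Usp49 shares 4392 exon bases with the predicted gene Gm20517 on the same strand, so its count is uncertain.

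USP25 and USP28 are a homologous pair, and USP28 is known to stabilise MYC. Usp28 was at 45.8, 41.8 and 43.3 CPM in the homozygous KO, 34.4, 33.2 and 33.5 CPM in the heterozygous KO and 33.9, 32.2, 32.7 and 34.7 CPM in wild type. The homozygous libraries formed a separate group, while the heterozygous ones lay inside the wild-type range. Usp28 rose by 0.39 ± 0.06 against wild type (edgeR adjusted p = 6.9e-04) and by 0.37 ± 0.06 against heterozygous KO (adjusted p = 0.00185). Usp25 was at 165, 186 and 169 CPM in the homozygous KO, 170, 179 and 175 CPM in the heterozygous KO and 175, 177, 161 and 177 CPM in wild type. Its groups overlapped, with a difference of 0.01 ± 0.06 (95% interval -0.11 to 0.13).

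Members known for acting on p53 or MDM2, as USP7 does, are Usp2, Usp10, Usp24 and Usp29. Usp10 was at 122, 118 and 114 CPM in the homozygous KO, 94.2, 102 and 104 CPM in the heterozygous KO and 94.8, 99.5, 108 and 94.8 CPM in wild type, with the homozygous libraries above all others. It rose by 0.25 ± 0.06 against wild type (edgeR adjusted p = 0.0105). The call was lost with library totals alone (0.15, adjusted p = 0.0706) and against the 1 wt word pair alone (0.22, edgeR adjusted p = 0.104). Usp2 (0.18 ± 0.12) and Usp24 (0.10 ± 0.07) did not pass, and Usp29 was not tested.

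USP5 takes apart free ubiquitin chains, and USP14 trims chains at the proteasome. Usp5 was at 182, 170 and 167 CPM in the homozygous KO, 138, 161 and 152 CPM in the heterozygous KO and 141, 140, 145 and 153 CPM in wild type. It rose by 0.26 ± 0.06 (edgeR adjusted p = 0.00943), with the homozygous libraries above all others, and lost its call with library totals alone (0.16, adjusted p = 0.053). The Usp5 call was also lost against the 1 wt word pair alone (0.21, edgeR adjusted p = 0.112). Usp14 was at 78.6, 67.4 and 63.6 CPM in the homozygous KO, 64.7, 66.8 and 71.6 CPM in the heterozygous KO and 64.9, 67.1, 60.3 and 58.9 CPM in wild type. These ranges overlapped, and the difference was 0.15 ± 0.08 (edgeR adjusted p = 0.182, 95% interval -0.02 to 0.33).

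Of the 4 members Usp39, Usp50, Usp53 and Usp54, 1 rose, where 12.5% of all features did. USP39 is inactive as a protease and belongs to the spliceosome. Usp39 was at 88.2, 87.3 and 78.2 CPM in the homozygous KO, 75.3, 77.2 and 79 CPM in the heterozygous KO and 71.8, 72.7, 70.4 and 74.4 CPM in wild type. Both knock-out groups lay above the wild types. It rose by 0.23 ± 0.05 in homozygous KO against wild type (edgeR adjusted p = 0.0103), a call lost with library totals alone (0.13, adjusted p = 0.0663). The Usp39 call was also lost against the 1 wt word pair alone (0.22, edgeR adjusted p = 0.0798). Usp50, Usp53 and Usp54 had differences of -0.68 ± 0.31, -0.25 ± 0.15 and -0.31 ± 0.12 and did not pass.

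Among the members of endosomes, endoplasmic reticulum and mitochondria (Usp8, Usp19, Usp20, Usp30, Usp33, Usp35 and Usp38), 2 of 7 fell and none rose, where 13.2% and 12.5% of all features did. These are too few members to set the group apart. USP20 and its close relative USP33 are bound by the von Hippel-Lindau protein. Usp20 was at 16, 18.7 and 19.3 CPM in the homozygous KO, 21.4, 23.7 and 22.2 CPM in the heterozygous KO and 23.7, 23.6, 25.7 and 23.9 CPM in wild type. The homozygous libraries were below all others. Usp20 fell by 0.43 ± 0.08 against wild type (edgeR adjusted p = 0.00285). Usp35, a relative of Usp38 linked to mitochondria, was at 4.83, 4.48 and 5.55 CPM in the homozygous KO, 5.55, 6.29 and 7.32 CPM in the heterozygous KO and 6.56, 8.11, 6.71 and 7.11 CPM in wild type. It fell by 0.52 ± 0.14 (edgeR adjusted p = 0.0174). This call was lost without homozygous KO replicate 2 (-0.45, adjusted p = 0.0712) or wild type replicate 2 (-0.46, adjusted p = 0.0519). Neither wild-type pair alone kept it, with -0.48 for the 1 wt word pair (edgeR adjusted p = 0.1) and -0.57 for the 2 wt word pair (adjusted p = 0.0542). Usp33 (0.02 ± 0.05), Usp19 (0.00 ± 0.04), Usp8 (-0.11 ± 0.07), Usp30 (0.18 ± 0.09) and Usp38 (-0.08 ± 0.05) did not pass.

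USP4, USP11 and USP15 share their domain order, and USP11 acts in repair with BRCA2. Usp11 was at 78.7, 62.2 and 67.4 CPM in the homozygous KO, 82.2, 77.9 and 74.7 CPM in the heterozygous KO and 90.9, 92.7, 83.4 and 78.9 CPM in wild type. The homozygous libraries were below the wild types, with homozygous KO 1 just under wild type 4. Usp11 fell by 0.32 ± 0.09 (edgeR adjusted p = 0.0189). It is X-linked, and the sexes were unevenly spread over these groups. Its level was 78.7 and 62.2 CPM in the homozygous libraries without Xist RNA above 100 CPM and 67.4 CPM in the one with it. In wild type Usp11 was at 90.9 CPM in the library without such Xist RNA and 92.7, 83.4 and 78.9 CPM in those with it. With Xist as covariate the difference was -0.34 (edgeR adjusted p = 0.0255). It did not pass without homozygous KO replicate 2 (-0.23, adjusted p = 0.0889), homozygous KO replicate 3 (adjusted p = 0.0768), wild type replicate 1 (adjusted p = 0.0511) or wild type replicate 2 (adjusted p = 0.0546). Nor did Usp11 pass against the 1 wt word pair alone (-0.23, edgeR adjusted p = 0.182). Usp4 was at 184, 196 and 181 CPM in the homozygous KO, 170, 180 and 174 CPM in the heterozygous KO and 174, 177, 191 and 166 CPM in wild type. Usp15 was at 131, 129 and 124 CPM in the homozygous KO, 114, 110 and 118 CPM in the heterozygous KO and 116, 121, 116 and 131 CPM in wild type. Usp4 and Usp15 overlapped between the groups, each with a difference of 0.08 ± 0.05 (95% interval -0.04 to 0.20) that turned to -0.01 with library totals alone.

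USP48, which acts on the NF-kB subunit RelA, completed the called members. Usp48 was at 160, 160 and 166 CPM in the homozygous KO, 179, 165 and 169 CPM in the heterozygous KO and 204, 195, 175 and 184 CPM in wild type. The homozygous libraries were below the wild types and 1 of them lay inside the heterozygous range. Usp48 fell by 0.22 ± 0.06 (edgeR adjusted p = 0.0158), a call lost without homozygous KO replicate 2 (-0.21, adjusted p = 0.0559). The call was also lost against the 1 wt word pair alone (edgeR adjusted p = 0.164). Usp9x, an X-linked gene with many substrates, was at 338, 290 and 280 CPM in the homozygous KO, 380, 333 and 325 CPM in the heterozygous KO and 370, 359, 325 and 335 CPM in wild type. Its difference was -0.20 ± 0.08 (edgeR adjusted p = 0.096), and it passed without homozygous KO replicate 1 (-0.29, adjusted p = 0.0184). Usp18, which removes the ubiquitin-like protein ISG15, had a difference of -0.37 ± 0.14 (edgeR adjusted p = 0.0766). The large members Usp31, Usp32 and Usp34 and the cell cycle member Usp37 lay between -0.09 and 0.14, and none passed.

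**Figure D3:**
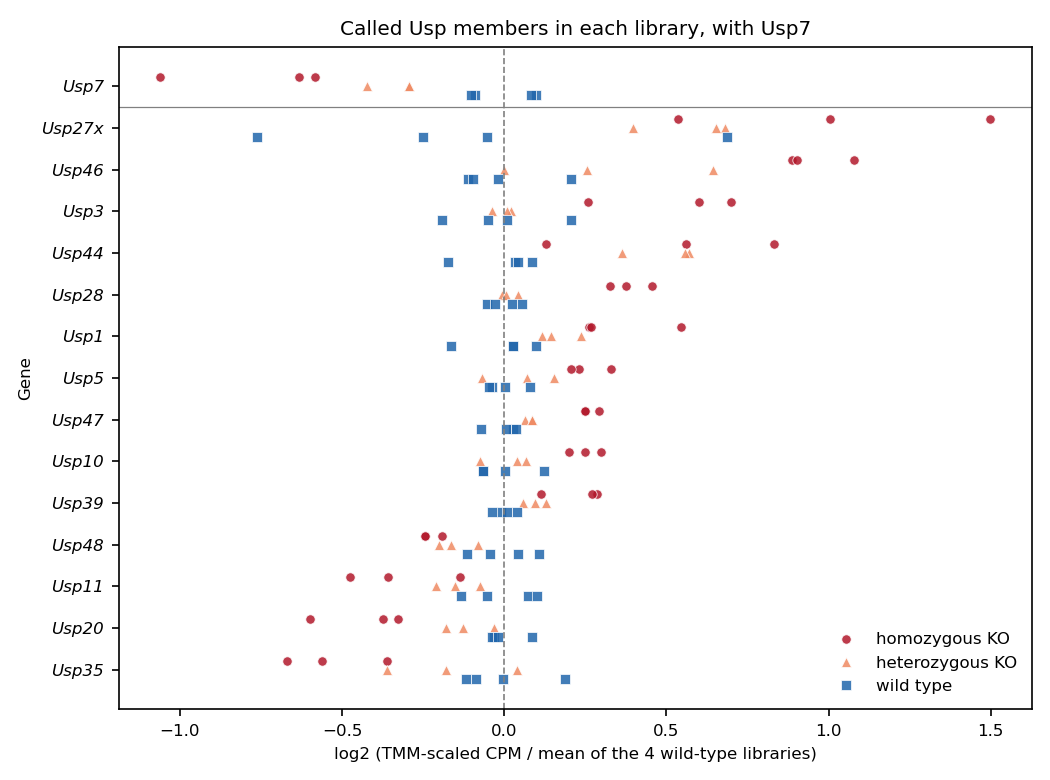
Each library's TMM-scaled CPM of the 14 members called in homozygous KO against wild type, and of Usp7, as log2 relative to the mean of the 4 wild types (dashed line). Circles are homozygous KO, triangles heterozygous KO and squares wild type; for 13 members the circles and squares do not overlap, and for Usp27x wild type 4 lies among the circles.

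The 14 called members kept their sign within both ranges of animal numbers in the titles. For 13 of them the homozygous and wild-type libraries did not overlap, so the sign could not turn in either range. The lower range (44 to 51) held 1 homozygous and 3 wild-type animals, and the upper range (56 to 63) held 2 and 1. Usp46 differed by 0.96 and 0.78 (log2, homozygous KO against wild type), Usp3 by 0.34 and 0.45, Usp28 by 0.47 and 0.29, Usp47 by 0.26 and 0.24 and Usp20 by -0.61 and -0.33. Usp1 differed by 0.58 in the lower range and 0.17 in the upper range, and Usp44 by 0.86 and 0.26. Usp7 itself differed by -1.09 and -0.51. These within-range values have 1 animal on 1 side and carry no test.

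Sequences around the start sites of the 2 rises (Usp46 and Usp28) and the 1 fall (Usp20) with the lowest adjusted p show how rich in CG dinucleotides these regions are. RefSeq (GRCm38.p6) held a promoter of 300 bases, 250 before the start and 50 after it, for 32 of the 43 tested members. CG dinucleotides are in capitals, and each sequence reads 5′ to 3′ along the gene. Usp46 occupies chr5:74068362-74068661 on the minus strand, Usp28 chr9:48985135-48985434 on the plus strand and Usp20 chr2:30982029-30982328 on the plus strand.
Usp46: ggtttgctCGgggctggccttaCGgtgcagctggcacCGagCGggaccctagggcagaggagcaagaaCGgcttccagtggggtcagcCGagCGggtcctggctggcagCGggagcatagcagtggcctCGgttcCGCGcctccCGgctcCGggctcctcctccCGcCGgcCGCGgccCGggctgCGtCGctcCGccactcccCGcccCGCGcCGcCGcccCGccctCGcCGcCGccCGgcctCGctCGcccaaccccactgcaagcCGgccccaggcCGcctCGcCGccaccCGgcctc
Usp28: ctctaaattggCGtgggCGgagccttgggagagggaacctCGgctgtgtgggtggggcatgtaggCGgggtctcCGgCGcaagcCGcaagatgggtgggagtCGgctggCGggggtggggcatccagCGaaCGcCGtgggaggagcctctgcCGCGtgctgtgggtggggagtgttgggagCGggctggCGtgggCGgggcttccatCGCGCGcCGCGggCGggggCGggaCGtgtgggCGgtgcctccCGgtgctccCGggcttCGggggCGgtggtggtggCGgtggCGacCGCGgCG
Usp20: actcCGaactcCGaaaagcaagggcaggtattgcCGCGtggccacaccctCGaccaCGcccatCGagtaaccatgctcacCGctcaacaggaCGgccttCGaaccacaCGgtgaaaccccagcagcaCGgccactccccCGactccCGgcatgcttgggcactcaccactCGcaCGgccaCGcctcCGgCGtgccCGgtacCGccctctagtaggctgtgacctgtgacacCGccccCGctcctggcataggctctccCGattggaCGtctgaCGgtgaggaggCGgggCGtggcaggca
The 3 promoters held 38, 35 and 28 CG dinucleotides. The median was 29 over the 32 members, each with 1 promoter, and 18 over 15191 promoters of tested genes. Those promoters belong to 11974 genes, some with more than 1, so the units differ. The 6 called-higher members with a promoter ranged from 8 to 45 and the 4 called-lower members from 8 to 37, so the ranges overlapped widely. The E-box CAGCTG, searched on both strands (it reads the same on each), was in the Usp46 promoter and in 5 of the 32 (15.6%), where 16.3% of all tested promoters held it. CAGGTG, searched on both strands, was in 4 of the 32 (12.5%) against 19.3% of all. TATAAA, searched on both strands, was in 2 of the 32 (6.25%) against 7.84% of all. Matches are descriptions of letters in this window only.

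In heterozygous KO against wild type, 0 of the 43 members passed, where 0.0154% of all features did. DESeq2 also called 0. Usp7 itself did not pass here (-0.34 ± 0.11, edgeR adjusted p = 0.608), so the count of 0 does not show that the members were unchanged. At an unadjusted p under 0.05 edgeR gave 3 members (6.98%), where 7.28% of all features were under it, and DESeq2 6. The 3 members, a share near that of all features, were Usp44 (0.50 ± 0.15, edgeR adjusted p = 0.606), Usp33 (-0.12 ± 0.05, adjusted p = 0.664) and Usp48 (-0.15 ± 0.06, adjusted p = 0.664). Libraries did not overlap for 6 members (14%), where 8.69% of all features did not overlap. Usp1, Usp39, Usp44 and Usp47 were above the wild types in all 3 heterozygous animals, and Usp19 and Usp33 were below. Usp19 was at 243, 257 and 255 CPM in the heterozygous KO and 259, 269, 276 and 269 CPM in wild type, and its difference was -0.09 ± 0.05 (edgeR adjusted p = 0.712). Usp33 was at 78.1, 81.8 and 86.4 CPM in the heterozygous KO and 91.3, 89.9, 89.6 and 87 CPM in wild type. The 95% interval of the difference lay within 0.5 of 0 (log2) for 39 members and within 0.25 of 0 for 23. Usp27x (-0.12 to 1.26) and Usp50 (-1.05 to 0.29) had the widest intervals. Usp28 (-0.11 to 0.14), Usp25 (-0.10 to 0.14) and Usp47 (-0.01 to 0.17) had narrow ones.

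In homozygous KO against heterozygous KO, 6 of the 43 members (14%) passed, where 17.1% of all features did. Of these, 5 were higher (11.6% of members, 7.63% of all features) and 1 was lower (2.33% of members, 9.5% of all features). With library totals alone the split was 3 and 3. The homozygous libraries are the same as in the comparison with wild type. Usp3 rose by 0.53 ± 0.11 (edgeR adjusted p = 0.00791), Usp46 by 0.64 ± 0.16 (adjusted p = 0.0202) and Usp10 by 0.24 ± 0.06 (adjusted p = 0.0257), beside Usp28 and Usp47 given above. Usp20 fell by 0.32 ± 0.09 (edgeR adjusted p = 0.027). Libraries did not overlap for 14 members (32.6%), 12 above and 2 below, where 33.3% of all features did not overlap. The calls of Usp3 and Usp28 held in all 14 alternative settings. Usp10 lost its call without homozygous KO replicate 1 (0.21) or 2 (0.24) or heterozygous KO replicate 1 (0.19) or 2 (0.25). The Usp10 call was also lost with library totals alone (0.15), no filter (0.22), only the 2 groups compared (0.23) and the Xist covariate (0.23). Usp20 lost it without homozygous KO replicate 1 (-0.25) or heterozygous KO replicate 2 (-0.28) or 3 (-0.33). Usp46 lost it without homozygous KO replicate 2 (0.57) or heterozygous KO replicate 1 (0.49) or 2 (0.60). Usp47 lost it without homozygous KO replicate 2 (0.17) or heterozygous KO replicate 1 (0.17), 2 (0.19) or 3 (0.19), and also with library totals alone (0.10) or no filter. With only the 2 groups compared, Usp20, Usp46 and Usp47 lost their calls as well. Without heterozygous KO replicate 1 and without heterozygous KO replicate 2, 3 members passed in each case.

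Ratios of related members within a library do not depend on the scaling between libraries. Usp46 per Usp12 count was 0.194, 0.265 and 0.25 in the homozygous KO, 0.126, 0.145 and 0.2 in the heterozygous KO and 0.126, 0.12, 0.103 and 0.148 in wild type. Usp28 per Usp25 count was 0.277, 0.225 and 0.256 in the homozygous KO against 0.182 to 0.203 in wild type, and Usp47 per Usp40 count was 7.31, 6.86 and 6.42 against 4.58 to 5.11. In these 3 pairs and in Usp27x per Usp22 every homozygous library was above every wild type. Usp20 per Usp33 count was 0.175, 0.206 and 0.217 in the homozygous KO and 0.26 to 0.287 in wild type, and so below in every library. Usp44 per Usp49 count was 0.379, 0.456 and 0.41 in the heterozygous KO, above both the wild types (0.259 to 0.331) and the homozygous KO (0.302 to 0.343). Usp5 per Usp14 count overlapped between all groups. Against wild type, the homozygous libraries were also above in Usp1 per Usp12 and below in Usp35 per Usp38 and Usp11 per Usp4. They overlapped the wild types in Usp11 per Usp15. Each of these pairs sets a called member over an uncalled relative in the same libraries, so the ratios give no separate support for the calls. No share over other gene pairs was counted.

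**Figure D4:**
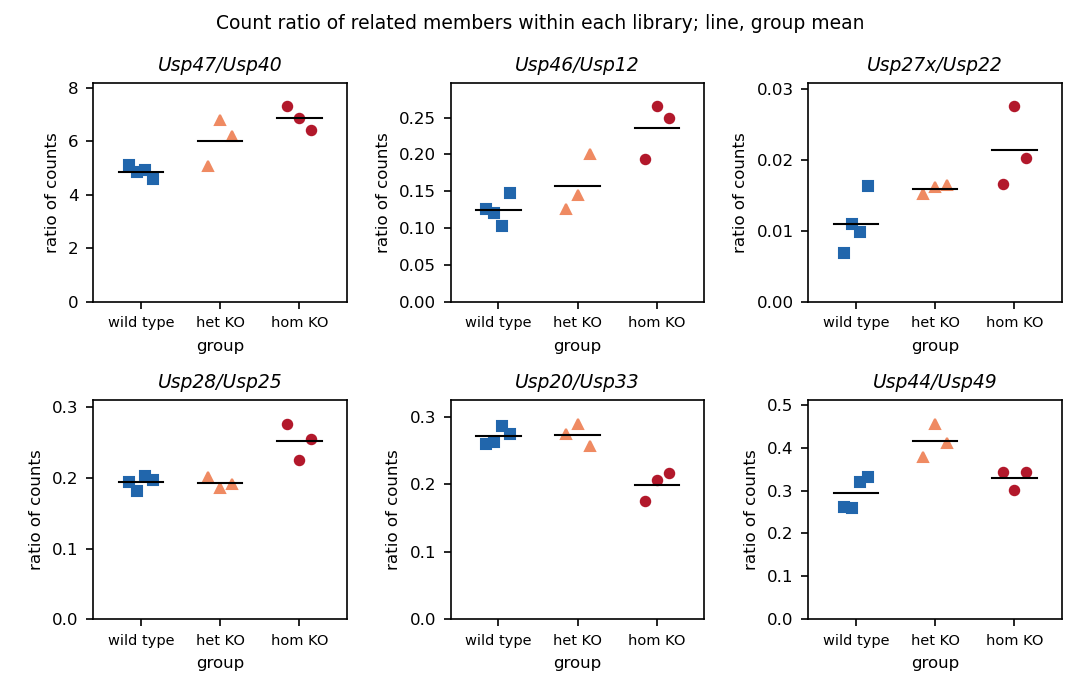
Ratio of raw counts of related members within each library, by group; points are libraries, black lines are group means and each axis starts at 0. In homozygous KO the ratio Usp47/Usp40 averages 6.86 against 4.87 in wild type and Usp20/Usp33 averages 0.199 against 0.271.

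Summed over the 49 members, USP transcripts amounted to 4721 ± 81.8 CPM in the homozygous KO (SD, n = 3), 4475 ± 37 CPM in the heterozygous KO (n = 3) and 4470 ± 147 CPM in wild type (n = 4). The homozygous libraries ranged from 4627 to 4778 CPM and the wild types from 4253 to 4575 CPM. Scaled by library totals alone, the order turned, with 4516 ± 34 CPM in the homozygous KO and 4566 ± 134 CPM in wild type. The direction of the sum therefore rests on the scaling. Usp7 made up 7.4 ± 1.23% of all USP counts in the homozygous KO, 10.1 ± 0.528% in the heterozygous KO and 12.4 ± 0.683% in wild type, a share that no scaling changes. Per exon length Usp7 stood at 48.6, 64.5 and 81.5 CPM per kb in the same order, and Usp1 at 95.5, 83.2 and 74.2 CPM per kb. These sums describe the libraries and carry no test.

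The neighbours of the family were read from fixed lists. Of 3 tested genes with a USP fold but another symbol (Cyld, Uspl1 and Pan2), all 3 were lower in the homozygous KO than in wild type. Of all features 13.2% were. Cyld, a brake on NF-kB signalling, was at 69.9 ± 5.33 CPM (SD, n = 3) against 105 ± 4.45 CPM (n = 4) and fell by 0.58 ± 0.06 (edgeR adjusted p = 8.3e-05). Uspl1, a SUMO protease, was at 102 ± 7.16 against 161 ± 8.66 CPM and fell by 0.65 ± 0.06 (edgeR adjusted p = 3.3e-05). Of 35 tested deubiquitinases of other families 6 were higher and 7 lower, where 12.5% and 13.2% of all features were. The proteasome-bound Uchl5 rose by 0.34 ± 0.07 (edgeR adjusted p = 0.00321) and the proteasome subunit Psmd7 by 0.26 ± 0.06, while Uchl1 fell by 2.48 ± 0.41 (edgeR adjusted p = 0.00129) and Otud1 by 0.91 ± 0.21. Uchl1 was scarce in both groups, at 0.0942 ± 0.0455 CPM in the homozygous KO and 0.534 ± 0.124 CPM in wild type (SD). Of 19 partners and substrates of USPs 3 were higher and none lower, again beside 12.5% and 13.2%. Among these Ube2t, the conjugating enzyme of the FANCD2 pathway in which Usp1 acts, rose by 0.38 ± 0.08 (edgeR adjusted p = 0.00706) and Trim27, a binding partner of USP7, by 0.32 ± 0.06. Of 8 genes for ubiquitin, ISG15 and their activating enzymes 2 were higher and 2 lower, beside the same 12.5% and 13.2%. The ubiquitin genes Ubb and Rps27a rose by 0.33 ± 0.07 (edgeR adjusted p = 0.00608) and 0.19 ± 0.06. Uba7, the activating enzyme of ISG15, fell by 0.92 ± 0.10 (edgeR adjusted p = 1.0e-04) and Isg15 by 0.59 ± 0.15. Of 15 interferon response genes, of which Usp18 is a known companion, 10 were lower and 1 higher, where 13.2% and 12.5% of all features were. Isg15 is counted in this list too. Ifit1 went from 11 ± 1.61 CPM in wild type to 2.73 ± 0.352 CPM and Mx1 from 3.18 ± 0.4 to 0.886 ± 0.185 CPM, while Bst2 rose from 15.8 ± 1.58 to 28 ± 1.51 CPM. The median log2 fold changes of these lists were -0.58, 0.02, 0.06, 0.17 and -0.59, beside -0.01 over all features. In heterozygous KO against wild type none of the genes of these lists passed in edgeR, with 1, 0, 1, 2 and 0 of them at an unadjusted p under 0.05. In homozygous against heterozygous KO the lists held 0, 1, 3, 0 and 1 higher and 2, 5, 0, 2 and 9 lower genes, where 7.63% and 9.5% of all features were. The genes with the largest changes there were those named above, plus Mindy4 (-1.36 ± 0.25), Mpnd (0.26 ± 0.06) and Dmwd (0.49 ± 0.10).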

How the data were processed

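The authors deposited raw counts per gene (HTSeq), with no normalization. The submitters' processing notes name CASAVA, STAR 2.4.1d, HTSeq 0.6.1p1 and the builds NCBIM37 and mm9. The annotation release and strand setting are not given in the sources used here, so features overlapping another gene are uncertain (5 members share exon bases on the same strand and 18 on the opposite strand). Columns were matched to animals by animal and library number. Symbols came from GENCODE on GRCm38, another build than the files', which matched 30221 of 34467 Ensembl identifiers. Exon lengths came from the same annotation, as the union over all transcripts of a gene. Counts were fitted with edgeR 4.0.16 (R 4.3.3): filterByExpr, TMM, 1 quasi-likelihood fit over the 3 groups (19511 features, biological coefficient of variation 0.207), Benjamini-Hochberg adjustment, called under 0.05. A standard error is the log2 fold change over the root of F; intervals are 95% by the t distribution of the fit. The code was tested on simulated data with a smaller coefficient of variation, which checks the code and not the power in these data. No 2 libraries of a group matched within sampling noise (chi-square per degree of freedom 13.5 to 116). Animals are separate, so p-values measure spread between them. Alternatives were other scalings, DESeq2 1.42.0, no filter, fewer groups, block terms, an Xist covariate and leaving out libraries. Members, lists and the naming rule (every called member, its relatives, and the largest called changes of each list) were chosen with earlier results of these data known. Promoters came from RefSeq.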

Additional observations from a re-analysis of the deposited data

Results flagged for a closer look

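In the wild-type group, the only one of 4 animals, 1 animal stood far from the other 3 for 4 of the 43 members examined, where chance alone gives about 1 in 20. Wild type 3 had 52 CPM of Usp12 (others 44.1 to 44.9), 25.7 CPM of Usp20 (others 23.6 to 23.9) and 161 CPM of Usp25 (others 175 to 177). Wild type 4 had 193 CPM of Usp22 (others 167 to 170). Both libraries are the ones whose column names add het. The cause was not tested.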

How the results depend on the processing

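The number of members called in homozygous KO against wild type was 14 and ranged from 10 (without wild type replicate 2) to 15 (without wild type replicate 4) on leaving out 1 library. It was 6 against only the 2 wild types with 1 wt word and 12 against only the 2 with 2 wt words. Depth differed between these pairs, with 86.37 and 80.96 M counts in the former and 39.83 and 41.02 M in the latter. The cause of the difference was not tested. Usp1, Usp3, Usp20, Usp28, Usp46 and Usp47 kept their call in all 17 settings. In homozygous KO against heterozygous KO the count was 6, with 3 to 7 on leaving out 1 library, 2 with only the 2 groups compared and 10 with the animal number block; the cause was not tested. Heterozygous KO against wild type gave 0 in all 17. Replicate numbers in the titles do not pair the animals (correlations of same-numbered deviations -0.104 to 0.225). With the replicate block the counts were 16, 0 and 8. Signs that turned were of small differences. Usp10 in heterozygous KO against wild type (0.01) was -0.01 with the replicate block, -0.02 with the 1 wt word controls and -0.02 to 0.06 over all settings, and Usp28 (0.01) was -0.01 with Xist as covariate. Usp44 in homozygous against heterozygous KO (0.04) was -0.05 with library totals alone, -0.02 with Xist, and from -0.15 to 0.20 on leaving out 1 library, lowest when homozygous KO 1 was left out. In homozygous KO against wild type Usp4 and Usp15 (0.08) were -0.01 with library totals alone, Usp12 (0.04) was -0.06 there, -0.02 with the 1 wt word controls and from -0.07 to 0.12 on leaving out 1 library, lowest when homozygous KO 1 was left out, and Usp25 (0.01) was -0.08 with library totals alone, -0.01 with no filter, -0.02 with the animal number block or the 2 wt word controls, -0.04 without homozygous KO replicate 2 and -0.02 without wild type replicate 3. Depth leaves the 6 members at or near 0 counts untested.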
